A study of Mus musculus with 4 samples.

Results

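The genes described here encode the T cell receptor complex and its first signalling proteins, measured in group 2 innate lymphoid cells (ILC2s), lymphocytes that carry no antigen receptor and are sorted as negative for T cell surface proteins. They were chosen by gene symbol and comprise 10 of the 24537 genes in the expression tables: the CD3 chains *Cd3d*, *Cd3e*, *Cd3g* and *Cd247*, the kinases *Lck* and *Zap70*, the adaptor *Lat*, and the surface receptors *Cd28*, *Cd5* and *Cd2*. RNA-seq was performed on ILC2s from bronchoalveolar lavage (BAL) fluid of GATIR mice on a C57BL/6 background, in which a YFP reporter inserted into the *Gata3* gene marks cells that transcribe *Gata3*. Lineage-Sca-1+YFP+ cells were collected 1 day after the last of a series of doses into the airways, and the study compared 2 libraries of ILC2s from acute IL-33-driven inflammation with 2 libraries from chronic inflammation driven by house dust mite (HDM) extract.

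In the IL-33 group, mice of 8 to 16 weeks of age received 3 doses of 0.5 µg IL-33, an epithelial alarmin, and per the labels were Gata3-YFP/YFP, with the population named CD25High. In the HDM group, mice of the same age range received 25 µg HDM repeatedly for 5 weeks and per the labels were Gata3-YFP/WT, with the population named CD25Low. The study's methods name homozygous animals alone, and no gate on CD25 is described for sorting. Stimulus, duration, reporter zygosity and CD25 population differed together between the groups, so that they cannot be told apart here. The design text calls the libraries biological replicates, and the number of mice in each library is not given in the sources used here. The lineage panel of the study's flow cytometry held antibodies to CD3 and CD5, so the products of *Cd3d*, *Cd3e*, *Cd3g* and *Cd5* bear on the gate itself.

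In a T cell, the antigen-binding receptor chains reach the cell surface together with the CD3γ, CD3δ and CD3ε chains and the ζ chain encoded by *Cd247*, which carry the tyrosine motifs that signal into the cell. Lck phosphorylates these motifs, Zap70 binds to them and in turn phosphorylates the scaffold Lat, from which calcium, protein kinase C and Ras signalling start. CD28 and CD2 are costimulatory and adhesion receptors, and CD5 dampens receptor signalling. ILC2s lack the antigen-binding chains at their surface, and share early lymphoid progenitors and transcription factors with T cells.

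Values are RPKM (reads per kilobase of exon, scaled to the mapped reads of the library). Between 10696039 and 16092309 reads per library fell in genes, and 3 reads on a gene of 1 kb corresponded to 0.156 to 0.255 RPKM. Across genes, the IL-33 libraries correlated with each other at 0.975 and the HDM libraries at 0.825, and a single ribosomal RNA gene, 45S, held 3.45 to 4.95% of the reads in genes after IL-33 and 17.4 to 25.4% after chronic HDM. Each of 16 ILC2 marker genes had reads in the 4 libraries, with summed levels of 3915 to 5002 RPKM led by *Id2*, *Ly6a* and *Arg1*. *Ly6a* encodes Sca-1, and *Gata3*, also in the list, carries the reporter. Cells were sorted on both, so that reads of these genes are no check of identity. Between the groups, 6 of the 16 were higher in both IL-33 libraries and 5 in both HDM libraries, against 41.7% and 23.5% of all genes tested. Among the 5 was *Gata3*, the gene that carries the sort reporter, with 14.9 and 18.9 RPKM after IL-33, against 216 and 195 RPKM after chronic HDM (log2 fold change -3.54, adjusted p = 0.00665 by limma).

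*Cd3g*, *Cd3d* and *Cd3e* lie side by side on chromosome 9 within 40019 bp of the mm10 genome. *Cd3g* (44969572 to 44980431, minus strand) and *Cd3d* (44981786 to 44987052, plus strand) are transcribed away from each other from start sites 1355 bp apart, and the end of *Cd3d* lies 11691 bp from the end of *Cd3e* (44998743 to 45009590, minus strand). The 250 bases before each of the facing start sites are shown because these neighbouring genes differed widely in level. They are taken from RefSeq (GRCm38.p6), read 5′ to 3′ on the gene's own strand, and capitals mark GGAA or its complement TTCC, the core that ETS factors bind, and AGATAA or its complement TTATCT, which GATA factors bind. The *Cd3g* sequence is chr9:44980432-44980681 on the minus strand and the *Cd3d* sequence is chr9:44981536-44981785 on the plus strand.
Cd3g: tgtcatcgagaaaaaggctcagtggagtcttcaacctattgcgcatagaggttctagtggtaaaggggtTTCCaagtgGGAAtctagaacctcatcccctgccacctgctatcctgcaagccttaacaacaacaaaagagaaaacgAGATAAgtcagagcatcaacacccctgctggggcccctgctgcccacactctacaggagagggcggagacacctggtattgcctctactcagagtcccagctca
Cd3d: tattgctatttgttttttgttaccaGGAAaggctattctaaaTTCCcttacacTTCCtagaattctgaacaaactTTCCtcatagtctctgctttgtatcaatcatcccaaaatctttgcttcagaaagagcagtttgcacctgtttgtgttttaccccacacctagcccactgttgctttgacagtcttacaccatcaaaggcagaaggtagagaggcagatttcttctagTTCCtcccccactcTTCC

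Counted on both strands, GGAA occurred at 2 positions before *Cd3g* and at 6 before *Cd3d*, and AGATAA at 1 position before *Cd3g* and 0 before *Cd3d*, with 0 overlaps between the motifs. Of 32851 mouse promoter windows of the same length, 93.4% held GGAA and 9.99% held AGATAA. The E-box letters CANNTG occurred at 3 positions before *Cd3g* and 1 before *Cd3d*, and were present in 66.2% of windows. Neither window held TGTGGT, the RUNX letters (14.0% of windows), or TATAAA (12.4% of windows). The windows had GC contents of 51.6% (*Cd3g*) and 41.2% (*Cd3d*), with a median of 52.4% over all windows. These are matches of letters in a window and were not measured as bound sites.

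Among the CD3 chains, *Cd3g* was transcribed at a high level in the sorted ILC2s whereas *Cd3d* and *Cd3e* were low. *Cd3g*, which encodes CD3γ, had 76.0 and 101 RPKM in the IL-33 libraries and 68.8 and 83.3 RPKM in the HDM libraries, from 1009 to 1554 reads. The groups overlapped, and the level placed *Cd3g* between the 89.7th and 94.2nd percentile of the genes with reads in each library. *Cd3d*, which encodes CD3δ, had 2.83 and 2.12 RPKM after IL-33 from 49 and 33 reads, against 0.393 and 0.205 RPKM after chronic HDM from 10 and 5 reads. The 2 IL-33 libraries were above the 2 HDM libraries, with a ratio of the group means of 8.28, and the gene was not tested because its mean over the 4 libraries, 1.39 RPKM, was under the minimum of 2 RPKM. *Cd3e*, which encodes CD3ε, had 1.07 and 0.418 RPKM after IL-33, against 2.44 and 0 RPKM after chronic HDM, from 67 reads in 1 HDM library and 0 in the other. The HDM libraries thus lay on either side of the IL-33 libraries, and *Cd3e* was not tested for the same reason.

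*Cd247* (chromosome 1, 165788681 to 165862112), which encodes the ζ chain that T cells and NK cells share, had 8.61 and 8.59 RPKM after IL-33, against 18.4 and 3.05 RPKM after chronic HDM. The IL-33 libraries were nearly equal, and the HDM libraries differed from each other by more than either did from the IL-33 libraries. Within a library, the *Cd3g* level was 26.9 and 47.8 times the *Cd3d* level after IL-33 and 175 and 406 times after chronic HDM. Against *Cd247*, the *Cd3g* level was 8.82 and 11.8 times as high after IL-33 and 3.74 and 27.3 times after chronic HDM. *Cd3g* accounted for 76.4 to 96.2% of the summed RPKM of the 4 CD3 chains, a sum that was 88.5 and 113 after IL-33, against 90.0 and 86.6 after chronic HDM. The CD3 chains were thus present in unequal amounts in each library, and in the 4 libraries *Cd3g* was the highest of them.

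**Figure D1:**
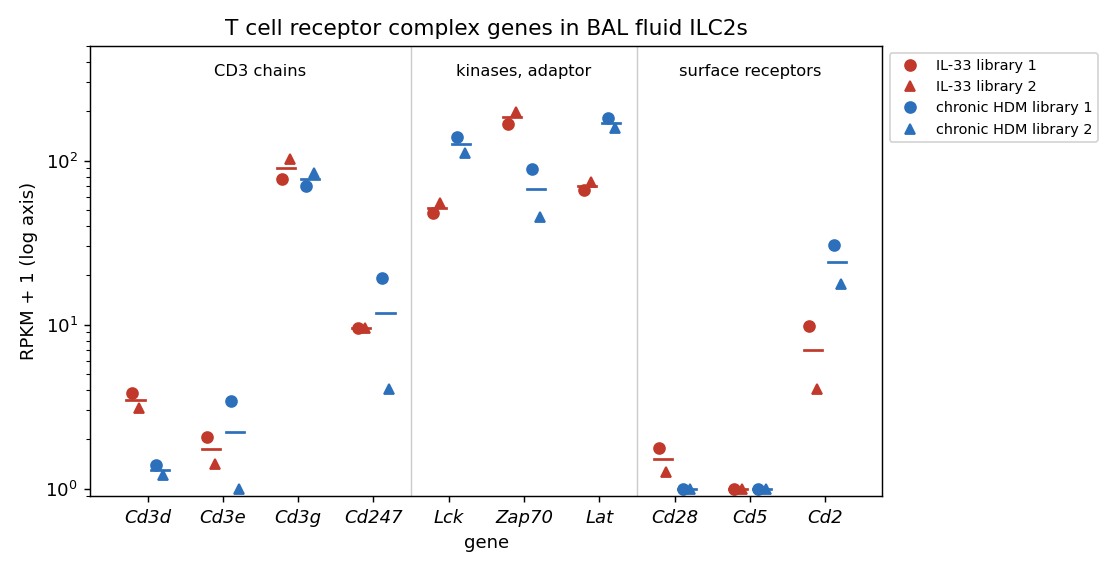
The level of each of the 10 genes in each library, as RPKM + 1 on a log axis, with IL-33 libraries in red and chronic HDM libraries in blue (library 1 as a circle, library 2 as a triangle) and a line at each group mean. *Cd3g*, *Lck*, *Zap70* and *Lat* stand at 44.4 RPKM or higher in the 4 libraries, *Cd3d*, *Cd3e* and *Cd28* stay under 3 RPKM, and *Cd5* sits at 0.

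The proximal signalling genes *Lck*, *Zap70* and *Lat* were all at high levels, but in a different order in each group. *Lck* (chromosome 4, 129548344 to 129573641), the Src family kinase that starts receptor signalling, had 46.9 and 53.8 RPKM after IL-33, against 138 and 111 RPKM after chronic HDM. *Lat* (chromosome 7, 126363828 to 126369568) had 65.5 and 73.0 RPKM after IL-33, against 180.5 and 157 RPKM after chronic HDM. Both genes were higher in the 2 HDM libraries than in the 2 IL-33 libraries, with ratios of the group means of 2.47 for *Lck* and 2.44 for *Lat*. *Zap70* (chromosome 1, 36778984 to 36782820), the kinase that docks on phosphorylated CD3 and ζ chains, went the other way, with 167 and 198 RPKM after IL-33, against 87.7 and 44.4 RPKM after chronic HDM. Its IL-33 libraries were above its HDM libraries, with a ratio of the group means of 2.76. The sum of the 3 genes was 279 and 325 RPKM after IL-33, against 406 and 312 RPKM after chronic HDM, so that the sums overlapped.

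Ratios within a library do not depend on how the libraries were scaled to each other. *Zap70* was 2.55 and 2.71 times *Lat* after IL-33 and 0.486 and 0.283 times *Lat* after chronic HDM. Likewise, *Zap70* was 3.56 and 3.68 times *Lck* after IL-33 and 0.635 and 0.400 times *Lck* after chronic HDM. The *Lat* to *Lck* ratio, in contrast, was 1.40 and 1.36 after IL-33, against 1.31 and 1.41 after chronic HDM, so that the groups overlapped. The ratio of *Zap70* to either gene thus lay on opposite sides of 1 in the 2 groups, while *Lat* stood above *Lck* by a similar factor in the 4 libraries. Where a ratio stands against 1, like the order of levels, also depends on the gene models counted. The interval counted for *Zap70* covered 18.2% of its gene. With 2 libraries in each group, an exact permutation test of such a ratio cannot give a two-sided p below 0.333, and no p is given.

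**Figure D2:**
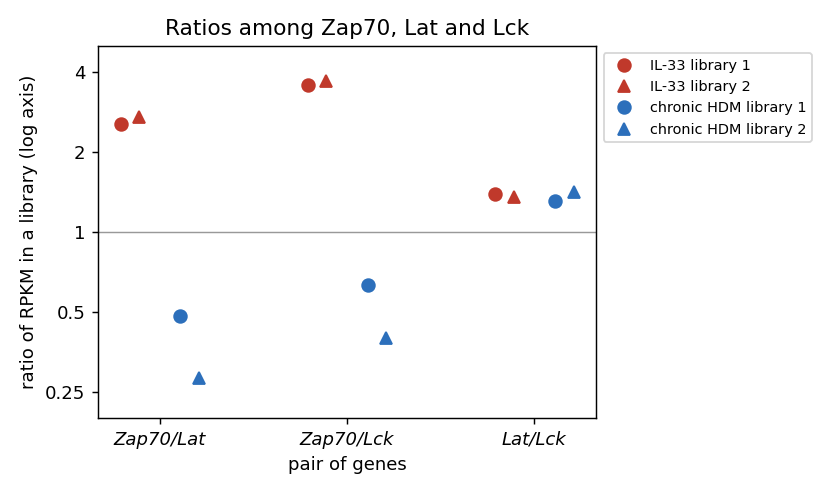
The ratio of RPKM of *Zap70* to *Lat*, *Zap70* to *Lck* and *Lat* to *Lck* within each library, on a log axis, with IL-33 libraries in red, chronic HDM libraries in blue and a grey line at 1. The ratios with *Zap70* lie between 2.55 and 3.68 after IL-33 and between 0.283 and 0.635 after chronic HDM, while *Lat* to *Lck* stays between 1.31 and 1.41.

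Of the surface receptors, only *Cd2* had more than a few RPKM. *Cd2* (chromosome 3, 101275908 to 101287939), an adhesion receptor that binds CD48 in mice, had 8.86 and 3.07 RPKM after IL-33, against 29.6 and 16.7 RPKM after chronic HDM. The HDM libraries were above the IL-33 libraries, with a ratio of the group means of 3.88, but the libraries of each group differed widely from each other. *Cd28* (chromosome 1, 60746388 to 60773359), the main costimulatory receptor of T cells, had 0.762 and 0.257 RPKM after IL-33 from 43 and 13 reads, and 0 reads in both HDM libraries. Against a floor of 3 reads in each HDM library, its level was at least 13.8-fold higher after IL-33, at a level under 1 RPKM. *Cd5* (chromosome 19, 10718143 to 10738974) had 0 reads in the 4 libraries. These floors cover counting error only, since the reads carry no molecular identifiers.

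The order of mean levels after IL-33 was *Zap70*, *Cd3g*, *Lat*, *Lck*, *Cd247*, *Cd2*, *Cd3d*, *Cd3e*, *Cd28* and *Cd5*. In it, the libraries of *Cd247* and *Cd2*, and those of *Cd3e* and *Cd28*, overlapped. After chronic HDM the order was *Lat*, *Lck*, *Cd3g*, *Zap70*, *Cd2*, *Cd247*, *Cd3e* and *Cd3d*, with *Cd28* and *Cd5* at 0. There, the overlapping neighbours were *Cd3g* and *Zap70*, *Cd2* and *Cd247*, and *Cd3e* and *Cd3d*. *Zap70* moved from the 96.0th and 96.9th percentile of genes with reads after IL-33 to the 92.6th and 87.6th after chronic HDM. *Lck* stood at the 83.7th and 85.2nd percentile after IL-33 and at the 95.9th in both HDM libraries, and *Lat* at the 87.9th and 89.4th and then the 97.2nd and 97.3rd. The summed level of the 10 genes was 378 and 440 RPKM after IL-33, against 526 and 415 RPKM after chronic HDM.

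Differences between the groups were tested with limma on log2(RPKM + 1), fitted over the 9523 genes that averaged 2 RPKM or more, with Benjamini-Hochberg adjusted p-values over all of them. Of the 10 genes 6 were tested, each with a group mean above 2 RPKM on both sides, and a log2 fold change is the IL-33 minus the HDM mean. At an adjusted p under 0.01 with an absolute log2 fold change over 1, 0 of the 6 passed, while 3.34% of all genes tested did. At an unadjusted p under 0.05, 4 of the 6 passed (36.7% of all genes). With limma-voom on reads recovered from the RPKM values, 4 also had an unadjusted p under 0.05, for which the all-gene share was not computed. At the adjusted p under 0.01, limma-voom called 0 of all 9523 genes. At an adjusted p under 0.05, *Zap70* passed as higher after IL-33, and *Lck* and *Lat* passed as higher after chronic HDM, with backgrounds of 13.8% and 4.78% of all genes in these directions. The libraries of the 2 groups did not overlap for 4 of the 6 genes, and for 65.2% of all genes tested. Of these 4, 1 was higher after IL-33 and 3 were higher after chronic HDM, where the backgrounds were 41.7% and 23.5%.

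For *Lck* the log2 fold change was -1.28 (SE 0.22, adjusted p = 0.0189 by limma) and for *Lat* it was -1.27 (SE 0.20, adjusted p = 0.0142 by limma). For *Zap70* it was 1.53 (SE 0.35, adjusted p = 0.0366 by limma). Without HDM replicate 1 or 2, the values were -1.13 or -1.44 for *Lck*, -1.17 or -1.37 for *Lat*, and 2.01 or 1.04 for *Zap70*. Without IL-33 replicate 1 or 2, they were -1.19 or -1.38, -1.19 or -1.35, and 1.65 or 1.41, in the same order of genes. With 1 library left in a group, the spread comes from the other group alone, so no p is given for these fits. *Cd2* had a log2 fold change of -1.88 (SE 0.56, adjusted p = 0.0693 by limma), a larger difference with a larger error. *Cd3g* had a log2 fold change of 0.21 with a 95% interval from -0.40 to 0.82, and *Cd247* one of 0.12 with an interval from -1.80 to 2.03, so that a difference of more than 2-fold stayed within the interval for *Cd247* but not for *Cd3g*. The signs of the *Cd3g* and *Cd247* values turned under other scalings of the libraries. The median over the 6 genes was -0.58 and the all-gene median was 0.28, the latter falling to -0.00 under quantile normalization.

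**Figure D3:**
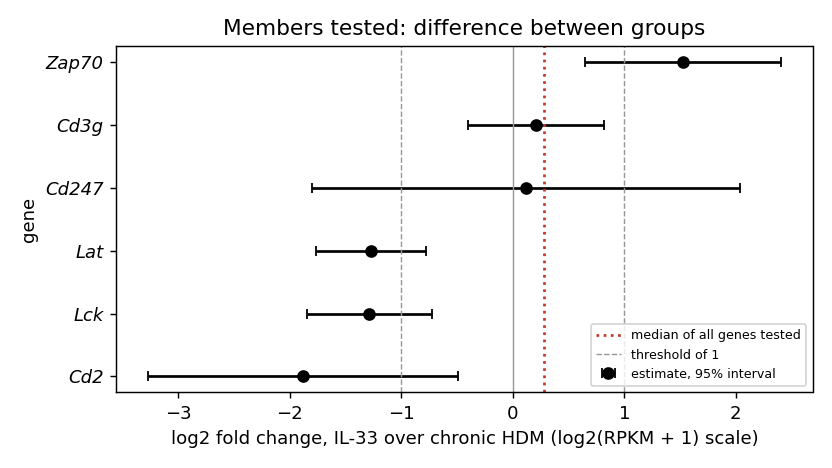
IL-33 minus HDM difference of each of the 6 genes tested, on the log2(RPKM + 1) scale, with 95% intervals from limma, dashed lines at -1 and 1, and the all-gene median of 0.28 as a dotted line. The intervals of *Lck*, *Lat* and *Cd2* lie below 0, that of *Zap70* lies above 0, and those of *Cd3g* and *Cd247* include 0, with estimates whose sign depends on the scaling.

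These are values of sorted populations, in which fewer cells that express a gene and less RNA per cell cannot be told apart. The interval counted for *Zap70* takes in 6 of the 13 exons of the annotated transcript of longest span, and 18.2% of the gene. The interval counted for *Cd28* takes in 1 of the 4 exons of its transcript of longest span, and 47.7% of the gene. Reads outside these intervals were not counted. The counted *Cd28* model held 4311 exonic bases, and how many exons it has was not determined. Other annotated genes share up to 206 exonic bases with *Cd247*, 135 with *Cd3e*, 75 with *Lat* and 25 with *Lck*, and since the libraries do not mark strand, reads in these bases cannot be assigned to a strand.

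The wider receptor pathway was described with 97 gene names in 5 lists. Of these, 74 matched a row and 63 were tested, of which 4 passed as higher after IL-33 and 0 as higher after chronic HDM, against backgrounds of 2.8% and 0.536% of all genes, and 59 did not pass. At an unadjusted p under 0.05, 20 of the 63 passed (36.7% of all genes). The median log2 fold change of the 63 genes was 0.15. With a pseudocount of 0.1, with no minimum RPKM, without the intensity trend or with limma-voom, 0 of all genes were called, these 4 included, and their log2 fold changes there lay between 1.73 and 7.79. Of the 23 names of receptor chains (α, β, γ and δ constant and variable genes and the pre-T receptor chain), 22 were not matched and were not analysed here. The 1 matched, *Ptcra*, which encodes the pre-T receptor chain, had 0 and 0.067 RPKM after IL-33, against 0.530 and 0.170 RPKM after chronic HDM.

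Of the 15 kinases, phosphatases and related regulators tested, 2 passed as higher after IL-33 and 0 as higher after chronic HDM, and the list's median was -0.09. *Txk*, a Tec family kinase, had 19.98 and 25.8 RPKM after IL-33, against 0 and 0.674 RPKM after chronic HDM (log2 fold change 4.20, SE 0.48, adjusted p = 0.00854 by limma). It passed the minimum level through the IL-33 libraries alone. *Ubash3a*, a negative regulator of receptor signalling, had 109 and 161 RPKM after IL-33, against 28.6 and 20.5 RPKM after chronic HDM (log2 fold change 2.41, SE 0.30, adjusted p = 0.00994 by limma). The genes of the list with the highest mean levels did not pass. They were *Ptprc*, the CD45 phosphatase that activates Lck, with a log2 fold change of -0.25 (adjusted p = 0.361 by limma), and *Ptpn22*, a phosphatase that acts on Lck and Zap70, with 0.75 (adjusted p = 0.238 by limma).

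Of 23 adaptors and Lat partners tested, 1 passed as higher after IL-33 and 0 as higher after chronic HDM, with a median of 0.40. It was *Sh2d2a*, which encodes the T cell-specific adaptor that binds Lck, with 341 and 403 RPKM after IL-33, against 49.8 and 41.1 RPKM after chronic HDM (log2 fold change 3.01, SE 0.21, adjusted p = 0.00665 by limma). The 4 libraries separated clearly by group, and in the IL-33 libraries *Sh2d2a* was higher than any of the 10 receptor complex genes. *Skap1*, an adaptor that links the receptor to integrins, had a high level in both groups and a log2 fold change of 0.40 (adjusted p = 0.151 by limma).

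Of 16 downstream calcium, NF-κB and NFAT genes tested, 0 passed in either direction, and the list's median was -0.03. By limma, 4 of them had an unadjusted p under 0.05 (36.7% of all genes), and limma-voom called 0 of all genes. The calcium sensor *Stim1* had -0.63 (adjusted p = 0.183) and the calcineurin subunit *Ppp3r1* 0.49 (adjusted p = 0.260) by limma, the highest mean levels of that list. Of 9 ligands and relatives of CD2 and CD28 tested, 1 passed as higher after IL-33 and 0 as higher after chronic HDM, with a median of 0.18. It was *Ctla4*, the inhibitory relative of *Cd28*, with 112 and 108 RPKM after IL-33, against 30.2 and 24.5 RPKM after chronic HDM (log2 fold change 1.98, SE 0.23, adjusted p = 0.00872 by limma). The other CD28 relative *Icos*, a costimulatory receptor of ILC2s, had 0.52 (adjusted p = 0.168), and *Cd48*, the ligand of CD2, had 0.91 (adjusted p = 0.249), both by limma.

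At the wider adjusted p of 0.05, 6 of the 63 pathway genes passed in each direction, with backgrounds of 13.8% of all genes as higher after IL-33 and 4.78% as higher after chronic HDM, and those named next were chosen after their values were seen. *Prkcq*, the protein kinase C isoform of the T cell synapse, had 13.5 and 13.0 RPKM after IL-33, against 64.2 and 45.9 RPKM after chronic HDM (log2 fold change -1.95, adjusted p = 0.0131 by limma). It was higher in the HDM libraries, as were *Lax1*, *Orai2* and *Cd27*, with log2 fold changes from -2.65 to -1.38. *Lcp2*, which encodes the SLP-76 adaptor that binds the Lat complex, was higher in the IL-33 libraries, with 133 and 116 RPKM against 55.2 and 49.7 RPKM (log2 fold change 1.23, adjusted p = 0.0175 by limma). The Lat-like adaptor *Lime1* had 119 and 142 RPKM after IL-33, against 55.3 and 66.9 RPKM after chronic HDM (log2 fold change 1.09, adjusted p = 0.0263 by limma).

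**Figure D4:**
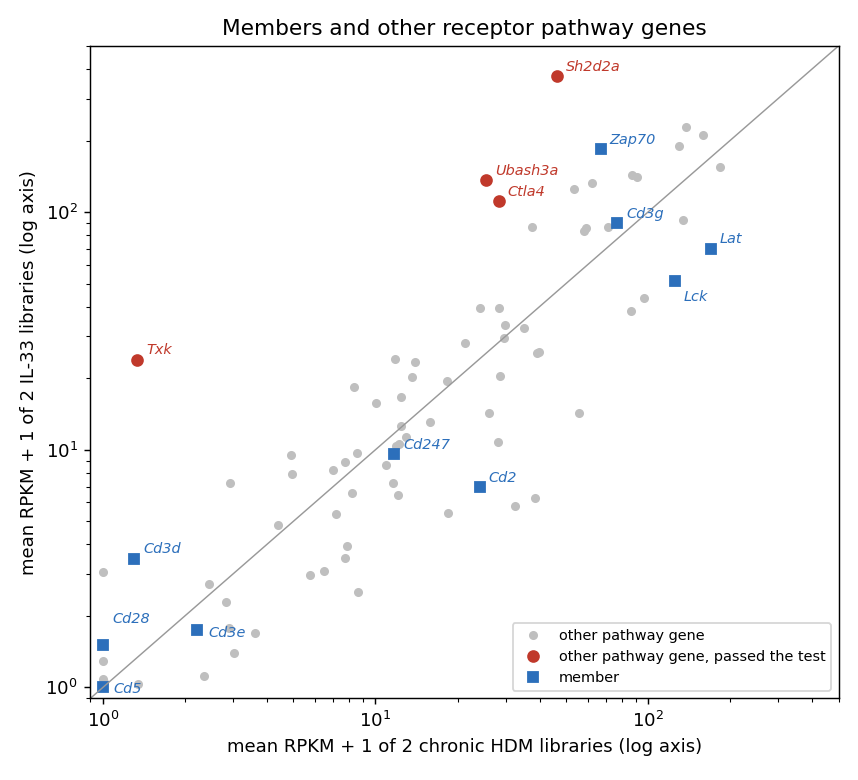
Mean RPKM + 1 of the 2 IL-33 libraries against that of the 2 chronic HDM libraries, both on log axes, for the 10 receptor complex genes (blue squares), the pathway genes that passed an adjusted p of 0.01 with an absolute log2 fold change over 1 (red) and the other pathway genes with a row (grey). *Txk*, *Sh2d2a*, *Ubash3a* and *Ctla4* lie above the line of equal means, with *Zap70* on the same side and *Lck*, *Lat* and *Cd2* on the other.

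Markers of cells that the sort could also hold moved with the group in both directions. For T cells, 14 of 17 marker names matched. *Cd4*, *Cd8a* and *Cd8b1* had 0 reads in the 4 libraries, where 3 reads of *Cd4* would have given 0.0506 to 0.0829 RPKM. Others of the list, named after their values were seen, had reads. *Foxp3* had 4.7 and 6.9 RPKM after IL-33, against 4.7 and 6.2 RPKM after chronic HDM. *Themis* had 0.211 and 0.017 RPKM after IL-33, against 2.68 and 0 RPKM after chronic HDM. *Trat1* had 9.6 and 2.9 RPKM after IL-33, against 3.85 and 0 RPKM after chronic HDM. The summed T cell list was 474 and 519 RPKM after IL-33, against 94.1 and 82.6 RPKM after chronic HDM, carried by *Ccr7*, *Ubash3a* and *Ctla4*, the last 2 of which are also pathway genes above. Of the 14 genes, 4 were higher in both IL-33 libraries (41.7% of all genes tested), as were *Zap70*, *Cd3d* and *Cd28*. In both HDM libraries 1 was higher, *Tcf7* (23.5% of all genes tested), as were *Lck*, *Lat* and *Cd2*.

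For macrophages, 12 of 14 names matched, none without reads, and their sum was 117 and 27.6 RPKM after IL-33, against 1004 and 2504 RPKM after chronic HDM, led by *Lyz2*, *Ear2* and *Cd68*. That sum was higher in both HDM libraries than in the IL-33 libraries, as were *Lck*, *Lat* and *Cd2*. So were 5 of the 12 macrophage genes (23.5% of all genes tested). Between the HDM libraries the order was opposite. HDM library 2, with the higher sum, had lower levels of *Lck* (111 against 138 RPKM), *Lat* (157 against 180.5 RPKM) and *Cd2* (16.7 against 29.6 RPKM). The 10 NK cell and ILC1 genes, of which *Klrb1c*, *Klre1* and *Klra8* had 0 reads, summed to 14.4 and 27.2 RPKM after IL-33, against 9.995 and 71.1 RPKM after chronic HDM, led by *Gzma*, *Klrk1* and *Tbx21*. The groups overlapped in that sum and in *Cd247*, which NK cells express, but the order of the HDM libraries was opposite. HDM library 2, with the higher sum (71.1 RPKM, of which *Gzma* held 62.0), had the lower *Cd247* level (3.05 against 18.4 RPKM). The 8 B cell genes, among which *Ms4a1*, *Pax5*, *Blk* and *Fcrla* had 0 reads, summed to 39.1 and 27.8 RPKM after IL-33, against 8.74 and 6.82 RPKM after chronic HDM, mostly *Cd79b*, with little *Cd22* and *Cd79a*. The 9 eosinophil, basophil and mast cell genes, of which *Epx*, *Ms4a2* and *Tpsb2* had 0 reads, summed to 54.4 and 46.1 RPKM after IL-33, against 7.46 and 5.96 RPKM after chronic HDM, with *Mcpt8* holding most of the IL-33 sums and 0 reads in both HDM libraries, where *Ccr3* and *Cpa3* were among the genes left. The part of these lists, and of the 45S share, in the differences of the receptor complex genes was not tested.

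The genes whose levels were most like those of *Cd3g*, by Euclidean distance of log2(RPKM + 1) over the 4 libraries, were *Grina* (0.198), *Reep5* (0.236) and *Gtf3a* (0.283). For *Zap70* they were *Tpm4* (0.273), *Tes* (0.366) and *Nop56* (0.403). *Tpm4*, for example, had 188 and 190 RPKM after IL-33, against 76.9 and 47.1 RPKM after chronic HDM. With 4 libraries in 2 groups, such a likeness describes little beyond the mean level, the difference between the groups and the difference between the HDM libraries.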

How the data were processed

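ILC2s were sorted from BAL fluid, and Smart-seq2 libraries were sequenced as single reads of 51 bp. Per the labels and the study's methods, the authors aligned reads to mm10 with HISAT2 2.0.4 and counted them in exons of 1 RefSeq transcript per gene with HOMER. The authors deposited RPKM values, 1 table per library, and these values were used here. The authors' own comparison used DESeq2, which was not run here. As the deposited unit is RPKM, a count-based fit was made only as the limma-voom alternative, on reads recovered from the RPKM values.

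Groups were taken from the sample labels. The genes described and the gene lists were chosen with earlier results of these data known. Values were tested as log2(RPKM + 1) in limma 3.58.1 (R 4.3.3) with an intensity trend and moderated variances, leaving out genes that averaged under 2 RPKM, with Benjamini-Hochberg adjustment; a call needs an adjusted p under 0.01 and an absolute log2 fold change over 1. A fold change on this scale understates that of low genes. Because nothing states how mice were assigned to libraries, p-values measure how far these libraries spread, in part perhaps for technical reasons. RPKM steps corresponded to whole reads (within 0.1 read) for 98.2 to 99.9% of values, which gave the read numbers, the 3-read floor and the limma-voom alternative scaled by trimmed means of M values.

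Genes named are the 10 described, the pathway genes called, the 2 of highest mean in each pathway list, the 3 of highest mean and those without reads in each marker list, and the 3 nearest in pattern to *Cd3g* and *Zap70*. Some others were named after their values were seen. Exons and overlapping genes came from GENCODE M21 (mm10), and promoters from RefSeq, in which 8 of the 10 genes had an entry. There were 15 alternatives planned and 1 added after the data were seen. Some genes that the rule or the lists would name are not reported here.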

Additional observations from a re-analysis of the deposited data

How the results depend on the processing

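No receptor complex gene of the 6 tested passed the adjusted p of 0.01 as reported. With a minimum of 5 RPKM 1 did (*Lat*, with 8.15% of all genes), and with quantile normalization 2 did (*Lck* and *Lat*, with 2.8% of all genes). At an adjusted p of 0.05, 3 passed (18.5% of all genes). A fit without 1 library leaves 1 library in a group, so its calls are not given. Of the pathway genes, 4 passed as reported and 12 at an adjusted p of 0.05. With a pseudocount of 0.1, no minimum, no intensity trend or limma-voom 0 passed, and each of these settings called 0 of all genes. With median-of-ratios scaling 1 passed (1.31% of all genes), as did 1 with scaling without 45S ribosomal RNA (0.861%, chosen after seeing the data). The median log2 fold change of the receptor complex genes, -0.58 as reported, was 0.12 with no minimum (9 genes), -1.03 with quantile normalization, -0.79 with median-of-ratios scaling, -0.86 with limma-voom, -0.84 without 45S ribosomal RNA, and -1.19 (without HDM replicate 2) to -0.53 without one library. *Cd3g* turned to -0.31, -0.019, -0.057 and -0.074 under quantile normalization, median-of-ratios scaling, limma-voom and scaling without 45S. *Cd247* turned to -0.082, -0.16 and -0.13 under the last 3 of these and to -1.01 without HDM replicate 2 (1.25 without HDM replicate 1); the cause was not tested. *Lck* ranged from -1.76 to -1.13, *Lat* from -1.77 to -1.17, *Zap70* from 1.003 to 2.01 and *Cd2* from -2.52 to -1.24, each in 1 direction throughout. With no minimum, *Cd3d* had 1.42 (adjusted p = 0.0741 by limma), *Cd28* 0.57 (0.180) and *Cd3e* -0.11 (0.929). The same replicate number in the 2 groups is only a number: deviations of same-numbered libraries from their group means correlated at -0.0385, and a fit with the replicate block called 3 receptor complex genes, 9 pathway genes and 13.2% of all genes.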
